A study of Mus musculus with 27 samples.

Results

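The Wnt ligands, the Frizzled (Fzd) receptors and the secreted inhibitors of the Sfrp and Dkk families were described across mouse retina and brain. The members were all genes whose symbol is Wnt, Fzd, Sfrp or Dkk followed by a digit and that have at least 1 protein-coding transcript, with the estimated counts of all transcripts of a gene added up. This gave 37 genes of 30735 in all: 19 Wnt, 10 Fzd, 4 Sfrp and 4 Dkk genes, with 66 transcripts.

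The study sequenced polyadenylated RNA from C57Bl/6 mice in 27 libraries, 18 of retina and 9 of brain. Retinal cells were dissociated, and cells carrying alkaline phosphatase (AP) on their surface were bound to antibody-coated magnetic beads. The AP sits in the Brn3a (Pou4f1) or Brn3b (Pou4f2) gene, which encode transcription factors of retinal ganglion cells, the neurons that send the optic nerve to the brain. Every retinal library, the controls included, therefore came from animals with an AP allele, and no wild-type retina is among them. Brn3a AP/WT (called HET) and Brn3a AP/KO (called KO) were sampled at postnatal day 3 (P3), and Brn3b AP/WT (HET) and Brn3b AP/KO (KO) at P3 and at embryonic day 15 (E15). Each of these 6 groups has 2 libraries of AP-positive cells. The unbound cells, called the retinal supernatant, were kept as the control, with 1 library for each of the 6 groups, so they were pooled by age into 4 libraries at P3 and 2 at E15. The brain libraries came from wild-type mice of P3 whose eyes had been injected with a fluorescent tracer to show where retinal axons end. There are 3 libraries of the superior colliculus, 3 of the lateral geniculate nucleus (LGN), 1 of the pretectal area and 2 of the remaining brain sections, which the labels call whole brain.

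Wnt proteins are secreted, lipid-modified ligands that bind Frizzled receptors together with Lrp5 or Lrp6, and in the canonical branch this stabilizes beta-catenin, which acts with TCF/LEF factors on target genes. Sfrp proteins resemble the ligand-binding part of a Frizzled and can bind Wnts outside the cell, while Dkk1, Dkk2 and Dkk4 act on the Lrp coreceptors and Dkk3 is a divergent relative. In the eye the pathway is known for its part at the ciliary margin, in progenitor cells and in retinal vessels, and in the brain for patterning of midbrain and thalamus and for axon guidance.

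The libraries held 28905675 to 37394655 estimated counts in retina and 10122962 to 13769685 in brain, and the members took 0.0299% to 0.232% of them. CPM are the counts per 1e+06 counts of a library, whose size was TMM-scaled over the genes kept by a low-count filter. Pou4f1 was at 16.7 and 10.98 CPM in the Brn3a KO AP-positive libraries against 486 and 444 in Brn3a HET. Pou4f2 was at 21.0 and 18.6 in Brn3b KO at P3 against 190 and 289 in Brn3b HET. Replicate 2 of Brn3a KO carries the Brn3b genotype in one of its labels, and its Pou4f1 and Pou4f2 levels stand with Brn3a KO, the group its title gives. At E15 Pou4f2 was at 65.7 and 63.1 CPM in Brn3b KO against 325 and 224 in Brn3b HET. Several source names give another gene or age than title and genotype, and the groups here follow the titles. AP-positive cells had summed ganglion cell markers of 1893 to 10941 CPM at P3 against 952 to 1695 in the supernatant, yet their microglia and macrophage markers were also higher, at 1059.6 to 4019.5 against 8.36 to 28.4 CPM, with all 12 of those genes called. The labels do not say that the libraries of a group came from separate animals, so p-values measure the spread between these libraries.

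The members lie on many chromosomes, and 4 pairs of Wnt genes are neighbours (GRCm38 coordinates from the deposited table). Wnt6 and Wnt10a are 6.2 kb apart on chromosome 1, Wnt10b and Wnt1 11.7 kb apart on chromosome 15, and Wnt3a and Wnt9a 16.2 kb apart on chromosome 11. Wnt9b (chr11:103727364-103749821, minus strand) and Wnt3 (chr11:103774150-103817957, plus strand) are 24.3 kb apart and point away from each other. RefSeq promoter windows (GRCm38.p6) were matched for 25 of the 37 members, 28 windows in all, and the 250 bases before the start were read. These windows are rich in G and C, with a median of 69.4% against 52.4% over the windows of all genes. Sequences are given for genes on which the comparisons turn: 2 of the genes lower in AP-positive cells that hold no searched motif (Sfrp2 and Fzd5), 3 genes that passed a test in AP-positive cells at P3 and hold one before their first start (Fzd7, Wnt11 and Wnt8b), and the neighbours Wnt3 and Wnt9b. Each runs 5′ to 3′ on the strand of its gene, and capitals mark a match to a motif.
Sfrp2 chr3:83766071-83766320, plus strand: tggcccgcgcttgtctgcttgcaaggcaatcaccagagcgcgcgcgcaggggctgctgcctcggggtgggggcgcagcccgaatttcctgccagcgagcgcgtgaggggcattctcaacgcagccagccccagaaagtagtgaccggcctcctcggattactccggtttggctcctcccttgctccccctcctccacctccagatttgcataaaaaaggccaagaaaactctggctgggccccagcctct
Fzd5 chr1:64737751-64738000, minus strand: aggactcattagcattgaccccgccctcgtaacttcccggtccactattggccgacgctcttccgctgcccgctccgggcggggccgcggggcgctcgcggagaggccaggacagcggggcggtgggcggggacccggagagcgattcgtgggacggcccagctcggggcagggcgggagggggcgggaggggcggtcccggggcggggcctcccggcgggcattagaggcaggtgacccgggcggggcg
Fzd7 chr1:59481897-59482146, plus strand: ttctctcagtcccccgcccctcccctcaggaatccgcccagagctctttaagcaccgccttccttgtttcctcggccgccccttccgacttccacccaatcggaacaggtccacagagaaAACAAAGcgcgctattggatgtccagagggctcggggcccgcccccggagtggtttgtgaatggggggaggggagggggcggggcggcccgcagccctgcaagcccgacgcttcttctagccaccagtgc
Wnt11 chr7:98834862-98835111, plus strand: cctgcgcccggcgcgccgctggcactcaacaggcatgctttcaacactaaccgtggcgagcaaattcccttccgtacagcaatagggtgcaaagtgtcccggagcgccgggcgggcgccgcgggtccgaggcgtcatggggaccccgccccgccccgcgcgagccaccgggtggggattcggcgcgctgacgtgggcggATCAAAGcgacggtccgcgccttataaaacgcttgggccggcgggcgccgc
Wnt8b chr19:44493222-44493471, plus strand: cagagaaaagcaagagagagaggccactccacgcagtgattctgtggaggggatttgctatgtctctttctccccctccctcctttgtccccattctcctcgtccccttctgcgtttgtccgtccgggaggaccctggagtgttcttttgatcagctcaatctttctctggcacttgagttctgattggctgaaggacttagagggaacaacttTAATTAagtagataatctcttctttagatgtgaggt
Wnt9b chr11:103749822-103750071, minus strand: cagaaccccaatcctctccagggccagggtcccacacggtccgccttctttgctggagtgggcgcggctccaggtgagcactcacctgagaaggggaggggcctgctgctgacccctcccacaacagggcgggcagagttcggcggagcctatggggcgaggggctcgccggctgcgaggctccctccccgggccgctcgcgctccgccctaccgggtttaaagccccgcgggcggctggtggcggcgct
Wnt3 chr11:103773925-103774174, plus strand: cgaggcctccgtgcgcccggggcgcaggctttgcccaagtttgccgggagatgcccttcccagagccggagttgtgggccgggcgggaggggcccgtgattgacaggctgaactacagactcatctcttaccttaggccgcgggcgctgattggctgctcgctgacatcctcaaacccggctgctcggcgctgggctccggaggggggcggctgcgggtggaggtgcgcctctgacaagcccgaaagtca

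The motifs were searched on both strands. The TCF/LEF letters, CTTTG followed by 2 bases that are each A or T, stand in 4 of the 28 member windows, and in 14.8% of the 32851 windows of all genes. The homeodomain letters TAATTA, a core that many homeodomain factors share, stand in 1 of the 28, that of Wnt8b, and in 4.84% of all windows. Wnt5b, which also passed at P3, holds a TCF/LEF match in the window of 1 of its 3 starts, and the window of a second start of Wnt11 holds none. A match describes the letters only and is no evidence of binding.

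Levels of different genes were compared per transcript length, as TPM, counts divided by transcript length and scaled to the same sum in every library. Dkk3 had the highest mean level of the 37 genes in every retinal group, from 100.1 ± 1.34 (SD, n = 2) TPM in Brn3a HET AP-positive cells to 581 ± 10.7 (SD, n = 2) in the E15 supernatant. It made up 42.4% to 71.4% of the members' summed TPM in the retinal groups. In the E15 supernatant Sfrp2 came next, at 455 ± 35.7 (SD, n = 2) TPM, and Fzd5 was the leading receptor at 71.8 ± 5.53 (SD, n = 2). In Brn3a HET cells the leading receptor was Fzd3, at 13.97 ± 1.84 (SD, n = 2) TPM, and Fzd5 stood at 5.31 ± 0.201 (SD, n = 2).

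The ligands were low in retina and much higher in brain on this scale. The 19 Wnt genes summed to 9.81 to 18.7 TPM in the retinal libraries and to 67.3 to 109 TPM in the brain libraries. Retina and brain differ in read layout and sequencer, so this difference was not tested. In the LGN the leading members were Fzd10 at 29.2 ± 5.38 (SD, n = 3) TPM, Wnt9b at 25.3 ± 1.29 (SD, n = 3), Fzd9 at 24.2 ± 1.52 (SD, n = 3) and Dkk3 at 23.7 ± 1.70 (SD, n = 3), whose means lie within a few SD of each other. In the superior colliculus Dkk3 led at 42.4 ± 7.48 (SD, n = 3), followed by Fzd1 at 30.5 ± 1.51 (SD, n = 3). In the remaining brain Dkk3 led at 51.5 ± 3.90 (SD, n = 2), followed by Sfrp1 at 31.5 ± 15.8 (SD, n = 2), whose libraries differ widely, and Wnt7b at 26.2 ± 0.602 (SD, n = 2).

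Some members were barely detected. Wnt8a had no count in any of the 27 libraries. By counting error alone this allows up to 0.0049 CPM over the retinal and 0.0291 CPM over the brain libraries, on unscaled counts. In retina 12 members stayed under 1 CPM in every library and 10 exceeded 10 CPM in at least 1 library, and in brain these numbers were 5 and 17. A filter on low counts left 28 members to be tested in retina, without Wnt1, Wnt2, Wnt3a, Wnt6, Wnt8a, Wnt10b, Wnt16, Sfrp5 and Dkk4. In brain it left 32, without Wnt1, Wnt3a, Wnt8a, Wnt8b and Wnt10a.

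**Figure D1:**
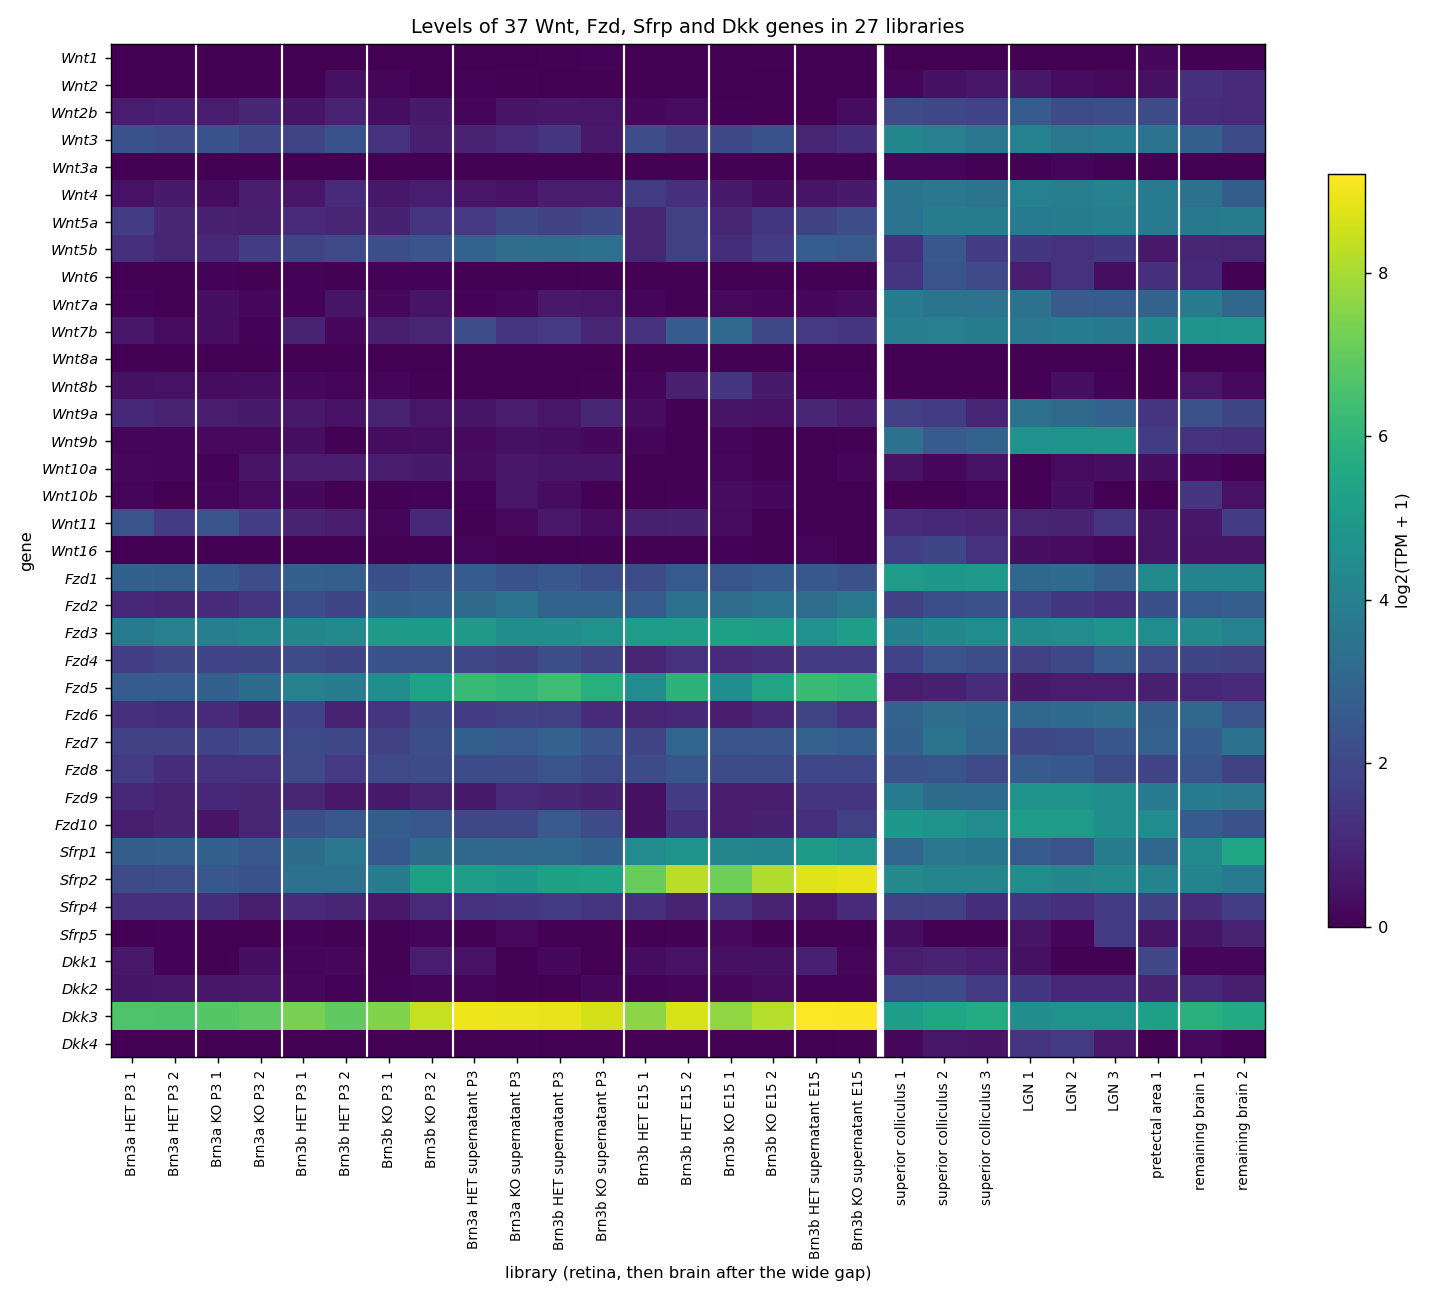
Level of each of the 37 genes (rows) in each of the 27 libraries (columns) as log2(TPM + 1), with thin white lines between groups and a wide one between retina and brain. Dkk3, Sfrp2 and Fzd5 stand out in the supernatant libraries. Wnt4, Wnt7b, Wnt9b and Fzd9 are brighter in brain than in retina, and Wnt3 and Fzd10 are so in the colliculus, LGN and pretectal area.

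AP-positive cells were first compared with the supernatant at P3, which asks which members mark the captured cells and which the rest of the retina. Of the 28 tested members, 4 were higher in AP-positive cells (Wnt3, Wnt8b, Wnt11 and Dkk2), 11 were lower and 13 did not pass the test. The comparison was broad, as 55% of the 16954 genes tested were called, 27.3% higher and 27.7% lower, so the members' share is close to that of all genes. The members' median log2 fold change was -0.33 and that of all genes -0.03. Of the 15 calls, 13 held under every alternative processing, while Dkk2 and Fzd10 did not.

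Among the ligands, Wnt3, a canonical ligand, was higher in AP-positive cells. Its level was 6.63 and 5.84 CPM in the Brn3a HET libraries, 6.86 and 4.86 in Brn3a KO, 4.61 and 6.42 in Brn3b HET and 2.49 and 1.13 in Brn3b KO, against 1.32, 1.76, 2.76 and 0.872 in the supernatant. Both Brn3b KO libraries lie within the supernatant range and the other 6 above it. The difference over all groups passed the test (log2 fold change 1.38, SE 0.32, adjusted p = 0.00212).

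Wnt11, a ligand best known from beta-catenin-independent signalling, was at 4.66 and 2.43 CPM in Brn3a HET and 5.12 and 2.69 in Brn3a KO cells, at 0.988 and 0.696 in Brn3b HET and 0.108 and 0.976 in Brn3b KO cells, and at 0, 0.312, 0.460 and 0.343 in the supernatant. All 4 Brn3a libraries are above every other retinal library, and 1 Brn3b KO library is within the supernatant range. Over all libraries 63.2% of the Wnt11 counts stood in protein-coding transcripts. The pooled difference passed (log2 fold change 2.50, SE 0.78, adjusted p = 0.0142), also with protein-coding transcripts only. Wnt8b, a ligand of the embryonic forebrain, followed the same order at lower levels, with 0.0527 to 0.671 CPM, with a median of 0.351, in the 8 AP-positive libraries and 0, 0, 0.0306 and 0.0793 in the supernatant (log2 fold change 3.24, SE 0.88, adjusted p = 0.00616).

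Wnt5a, Wnt5b and Wnt7b were lower in AP-positive cells. Wnt5b, a close relative of the non-canonical ligand Wnt5a, ranged from 1.12 to 4.90 CPM, with a median of 2.89, against 7.05, 9.22, 10.02 and 10.1 in the supernatant (log2 fold change -1.84, SE 0.25, adjusted p = 3.2e-05). Wnt5a ranged from 1.84 to 3.66 CPM, with a median of 2.69, against 6.57, 6.44, 6.31 and 5.28 (log2 fold change -1.18, SE 0.22, adjusted p = 0.00047). The supernatant libraries lie above all AP-positive libraries in both genes. Wnt7b, a canonical ligand active in vascular development, ranged from 0.153 to 1.71 CPM, with a median of 0.716, against 5.89, 2.72, 3.34 and 1.72 (log2 fold change -2.19, SE 0.49, adjusted p = 0.00172). The 1.72 of the Brn3b KO supernatant lies beside the 1.71 of Brn3b KO replicate 2, and the groups nearly meet there. The other 6 tested ligands (Wnt2b, Wnt4, Wnt7a, Wnt9a, Wnt9b and Wnt10a) did not pass.

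Of the 10 receptors, 6 were lower in AP-positive cells (Fzd2, Fzd5, Fzd7, Fzd8, Fzd10 and, slightly, Fzd3) and none was called higher. Fzd5 (chr1:64730558-64737751, minus strand), a receptor that retinal progenitors are known to express, showed the largest fall of these. Its level was 19.6 and 20.2 CPM in the Brn3a HET libraries, 23.6 and 32.3 in Brn3a KO, 58.1 and 48.7 in Brn3b HET and 78.1 and 143 in Brn3b KO cells, against 253, 217, 288 and 192 in the supernatant. Every AP-positive library was below every supernatant library, with Brn3b KO replicate 2 nearest (log2 fold change -2.48, SE 0.25, adjusted p = 2.4e-06).

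Fzd2 ranged from 1.87 to 12.2 CPM, with a median of 4.42, in AP-positive cells against 14.9, 18.6, 12.8 and 12.3 in the supernatant (log2 fold change -1.68, SE 0.17, adjusted p = 2.8e-06). Both Brn3b KO libraries, at 11.4 and 12.2, sit just under the supernatant, and the 4 Brn3a libraries are the lowest. Fzd7 (log2 fold change -0.85, SE 0.21, adjusted p = 0.00394) and Fzd8 (log2 fold change -0.65, SE 0.18, adjusted p = 0.00735) fell less. Fzd3, a receptor of axon guidance and planar cell polarity, ranged from 28.8 to 67.3 CPM, with a median of 39.3, against 62.2, 46.8, 47.7 and 54.1, and its groups overlap although the test passed (log2 fold change -0.33, SE 0.10, adjusted p = 0.011). Fzd10 split by genotype, at 1.28 and 1.54 in Brn3a HET and 0.732 and 1.65 in Brn3a KO cells but 6.75 and 7.87 in Brn3b HET and 9.28 and 7.78 in Brn3b KO cells, with the supernatant at 4.93, 4.68, 8.46 and 5.63 (log2 fold change -0.89, SE 0.32, adjusted p = 0.0306, with up to 0.103 under the alternatives).

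Among the inhibitors, Sfrp2 and Dkk3 were lower in AP-positive cells, and Dkk2 was called higher. Sfrp2 (chr3:83766321-83774316, plus strand) was at 3.68 and 3.55 CPM in Brn3a HET libraries, 5.24 and 4.43 in Brn3a KO, 10.2 and 9.96 in Brn3b HET and 14.01 and 38.1 in Brn3b KO cells, against 34.2, 28.2, 39.5 and 39.6 in the supernatant. Only Brn3b KO replicate 2 reaches the supernatant range (log2 fold change -2.10, SE 0.25, adjusted p = 1.1e-05). Dkk3 (chr7:112116019-112159057, minus strand) was at 186 and 178 CPM in Brn3a HET libraries, 203 and 224 in Brn3a KO, 292 and 216 in Brn3b HET and 303 and 584 in Brn3b KO cells, against 830.4, 798, 825 and 669 in the supernatant, with no overlap (log2 fold change -1.60, SE 0.19, adjusted p = 8.9e-06). Dkk2 was at 0.913 and 0.978 CPM in Brn3a HET, 1.07 and 1.13 in Brn3a KO, 0.302 and 0.121 in Brn3b HET and 0.108 and 0.264 in Brn3b KO cells, against 0.225, 0.0567, 0.0306 and 0.264 in the supernatant. All 4 Brn3a libraries are above the supernatant, and 3 of the 4 Brn3b libraries are within its range. The pooled test passed (log2 fold change 1.61, SE 0.60, adjusted p = 0.034), and the call was lost in 12 of 19 alternatives. Sfrp1, Sfrp4 and Dkk1 did not pass.

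The retinal progenitor and Müller glia markers moved with these members: all 14 were lower in AP-positive cells, and their summed level was 1095 to 2738 CPM against 3075 to 4164 in the supernatant, with none of the 14 at 0 in either. The highest AP-positive sum is that of Brn3b KO replicate 2, the library that also holds the highest AP-positive Sfrp2, Fzd5 and Dkk3. Amacrine markers ranged from 97.1 to 958 against 779.9 to 913 CPM. Photoreceptor markers ranged from 3237 to 4670 CPM in Brn3b HET, 3930 to 5784 in Brn3b KO and 3296 to 3990 in the supernatant. In Brn3a HET and KO cells they ranged from 1209 to 1215 and from 506 to 2161. Retinal astrocyte markers summed to 78.1 to 289 CPM in AP-positive cells and 40.6 to 66.6 in the supernatant, with 2 of 6 called higher and 1 lower, and vascular markers to 93.4 to 601 and 592 to 661, with 4 of 11 called higher and 2 lower. The part of these cell types, and of the microglia markers given above, in the members' differences was not tested. In bulk samples, fewer cells of a type and less RNA per cell cannot be told apart.

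**Figure D2:**
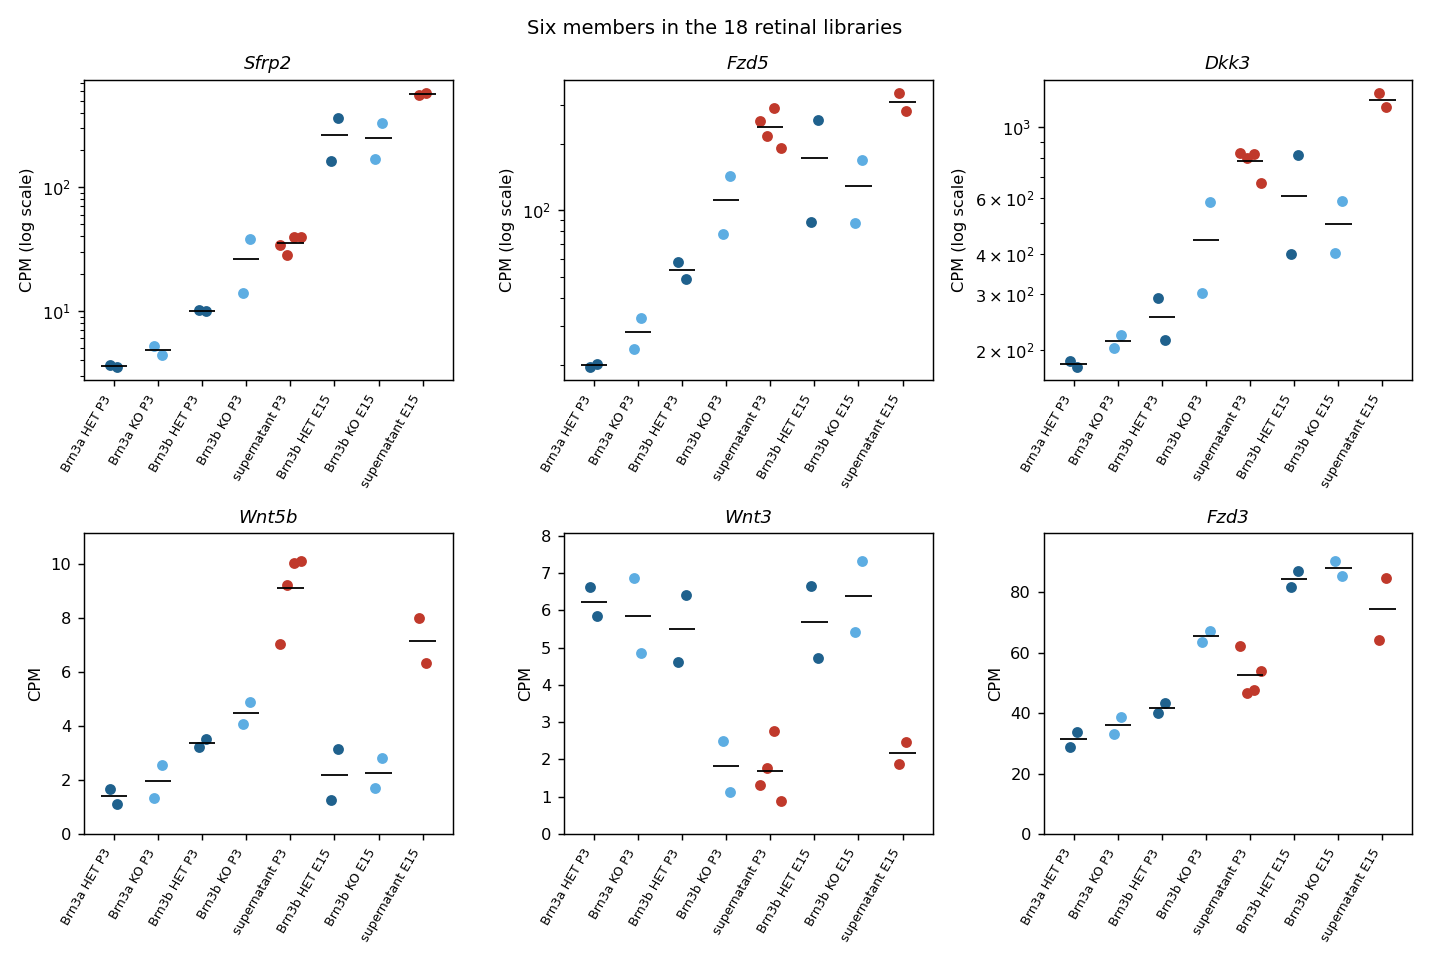
CPM of 6 members in the 18 retinal libraries by group (points are libraries, bars are group means; dark blue HET, light blue KO, red supernatant), with a log axis in the upper row and an axis from 0 in the lower. Sfrp2, Fzd5, Dkk3 and Wnt5b are lowest in Brn3a cells and highest in the supernatant of the same age, while Wnt3 is lower in the supernatant and in Brn3b KO cells of P3 than in the other AP-positive groups.

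At E15, when retinal neurons are still being born, 2 members were higher in AP-positive cells (Wnt3 and Wnt8b) and 6 lower (Wnt5a, Wnt5b, Fzd4, Fzd5, Sfrp2 and Dkk3), against 26.3% of all genes called (13.4% higher and 13% lower). The 20 other tested members did not pass. The 8 calls were lost without the Brn3b HET supernatant library, which leaves 1 supernatant library at E15. They were also lost with only the E15 groups in the fit, where 866 of all genes were called against 4467 in the main fit. Without replicate 1 of Brn3b HET 4 members were called, without replicate 1 of Brn3b KO 3, and without the Brn3b KO supernatant 4. DESeq2 called 13, and 13 had an unadjusted p under 0.05 in edgeR.

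Wnt3 was at 6.66 and 4.72 CPM in Brn3b HET and 5.42 and 7.33 in Brn3b KO cells against 1.87 and 2.47 in the supernatant, with no overlap (log2 fold change 1.47, SE 0.45, adjusted p = 0.0286). Wnt8b was at 0.174 and 1.54 in Brn3b HET and 3.30 and 1.16 in Brn3b KO against 0.112 and 0.113, with a wide spread among AP-positive libraries (log2 fold change 3.58, SE 1.10, adjusted p = 0.0295). Wnt5b was at 1.25 and 3.15 in Brn3b HET and 1.71 and 2.81 in Brn3b KO against 8.01 and 6.32 (log2 fold change -1.68, SE 0.36, adjusted p = 0.00576). Each of these 3 ligands separated all 4 AP-positive libraries from both supernatant libraries.

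Sfrp2 was at 162 and 362 CPM in Brn3b HET and 169 and 328 in Brn3b KO cells against 552 and 573 in the supernatant (log2 fold change -1.14, SE 0.34, adjusted p = 0.028). Dkk3 was at 399.5 and 818 in Brn3b HET and 404 and 588 in Brn3b KO against 1275 and 1153 (log2 fold change -1.14, SE 0.26, adjusted p = 0.00894). Fzd5 was at 87.96 and 256 in Brn3b HET and 87.7 and 169 in Brn3b KO against 337 and 281 (log2 fold change -1.06, SE 0.35, adjusted p = 0.0399). In all 3 genes replicate 2 of each genotype is the higher library. The progenitor and Müller glia markers do the same, with sums of 2379 and 4515 CPM in Brn3b HET, 2762 and 3588 in Brn3b KO, and 6338 and 5338 in the supernatant, and their part was not tested.

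Wnt5a was at 2.27 and 4.30 CPM in Brn3b HET and 4.06 and 4.28 in Brn3b KO cells against 7.06 and 6.78 in the supernatant (log2 fold change -0.90, SE 0.32, adjusted p = 0.0489). Fzd4, the receptor of Norrin in retinal vessels, was at 2.16 and 3.32 in Brn3b HET and 2.50 and 3.02 in Brn3b KO against 4.83 and 4.37 (log2 fold change -0.74, SE 0.25, adjusted p = 0.0405). Both calls are close to the threshold of 0.05 and were lost in 10 and 9 of 13 alternatives. Vascular markers summed to 88.6 to 221 CPM in AP-positive cells and 244 to 314 in the supernatant at E15, with 1 of 11 called lower. Microglia and macrophage markers summed to 713 to 1047 and 9.35 to 9.98, with all 12 called higher. The part of both was not tested.

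A further test asked whether the difference between Brn3b AP-positive cells and the supernatant changed with age. Its P3 supernatant was the pool of all 4 libraries, Brn3a ones included. It called none of the 28 members, against 6.87% of all genes (3.71% higher and 3.16% lower). At an unadjusted p under 0.05 there were 4 (Wnt7b, Fzd4, Fzd10 and Sfrp1), and DESeq2 called 4. Leaving out E15 Brn3b HET replicate 2 called 2, and leaving out E15 Brn3b HET replicate 1, the E15 Brn3b KO supernatant or P3 Brn3b KO replicate 1 called 1 each. For Wnt7b this difference between ages was -2.73 on the log2 scale (adjusted p = 0.096). At P3 Wnt7b was at 1.59 and 0.272 CPM in Brn3b HET and 1.24 and 1.71 in Brn3b KO cells. The supernatants were at 3.34 and 1.72 for Brn3b and 5.89 and 2.72 for Brn3a, with no overlap. At E15 Wnt7b was at 3.07 and 10.9 CPM in Brn3b HET and 15.9 and 6.20 in Brn3b KO cells and at 4.10 and 3.57 in the supernatant, which lies inside the AP-positive range.

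**Figure D3:**
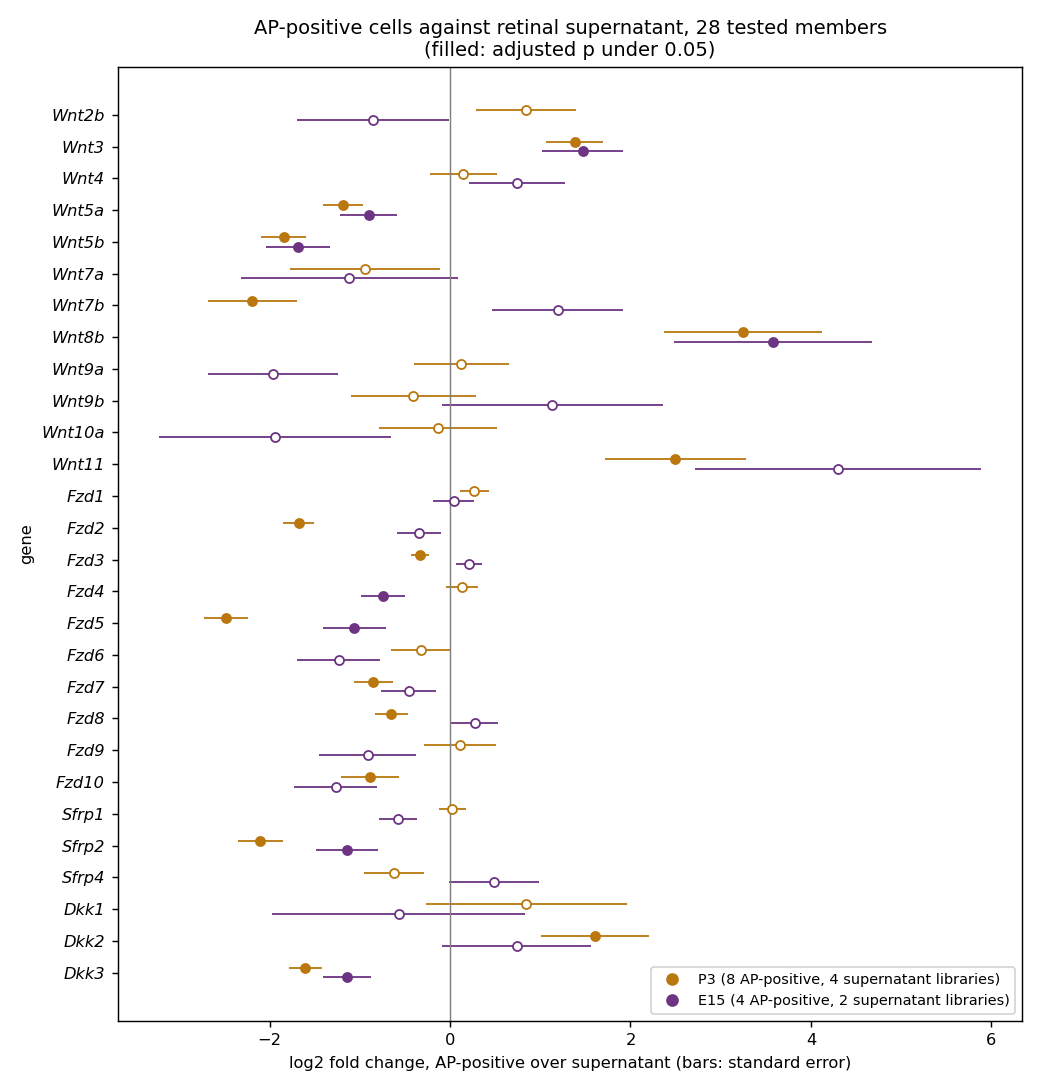
Log2 fold change of AP-positive cells over retinal supernatant for the 28 tested members (rows) at P3 and at E15, with standard errors as bars and filled points where the adjusted p was under 0.05. Wnt3 and Wnt8b are to the right and Wnt5a, Wnt5b, Fzd5, Sfrp2 and Dkk3 to the left at both ages.

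The supernatant itself changed with age in 4 members, all lower at P3 than at E15 (Fzd2, Fzd3, Sfrp1 and Sfrp2), against 33.1% of all genes called (15.6% higher and 17.5% lower). Sfrp2 fell from 552 and 573 CPM at E15 to 34.2, 28.2, 39.5 and 39.6 at P3, with no overlap (log2 fold change -3.99, SE 0.35, adjusted p = 5.9e-06). Sfrp1, an inhibitor of the same family, fell from 89.4 and 66.4 to 16.3, 15.5, 17.3 and 13.7 (log2 fold change -2.31, SE 0.21, adjusted p = 5.9e-06). Both held under every alternative. Fzd2 (log2 fold change -0.68, SE 0.24, adjusted p = 0.0419) and Fzd3 (log2 fold change -0.50, SE 0.14, adjusted p = 0.0139) moved less and were lost in 9 and 4 of 12 alternatives, and 2 members were called without the Brn3b HET supernatant of P3. Dkk3 was at 1275 and 1153 CPM at E15 and 830.4, 798, 825 and 669 at P3 and did not pass (adjusted p = 0.0834). Cell type markers moved with this comparison without overlap: the progenitor and Müller glia sums were 5338 to 6338 CPM at E15 and 3075 to 4164 at P3, the amacrine sums 291 to 300.4 and 779.9 to 913, and the photoreceptor sums 955 to 1088 and 3296 to 3990.2. Their part was not tested.

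In Brn3b HET AP-positive cells, 3 members were higher at P3 than at E15 (Wnt10a, Fzd4 and Fzd10) and 7 lower (Wnt7b, Fzd2, Fzd3, Fzd5, Sfrp1, Sfrp2 and Dkk3), against 28.8% of all genes called (16.6% higher and 12.3% lower). The calls on Fzd3, Sfrp1 and Sfrp2 held under every alternative, and the other 7 were lost in at least 1. With only these 2 groups in the fit 5 members were called, without E15 replicate 2 also 5, without P3 replicate 1 there were 6 and without P3 replicate 2 there were 5.

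Sfrp2 was at 162 and 362 CPM at E15 and 10.2 and 9.96 at P3 in these cells (log2 fold change -4.69, SE 0.55, adjusted p = 0.00043), and Sfrp1 at 55.3 and 67.4 at E15 and 20.8 and 26.6 at P3 (log2 fold change -1.36, SE 0.27, adjusted p = 0.00516). Fzd3 was at 81.8 and 86.9 at E15 and 39.9 and 43.4 at P3 (log2 fold change -1.01, SE 0.13, adjusted p = 0.00067). None of these 3 overlaps between ages. Fzd5 was at 87.96 and 256 at E15 and 58.1 and 48.7 at P3 (log2 fold change -1.68, SE 0.48, adjusted p = 0.027), and Dkk3 at 399.5 and 818 at E15 and 292 and 216 at P3 (log2 fold change -1.26, SE 0.37, adjusted p = 0.0292). Without E15 replicate 2, the library with the high progenitor marker sum, the calls on Fzd5, Dkk3, Fzd2, Wnt7b and Wnt10a were lost.

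In the other direction, Fzd10 was at 0.627 and 2.76 CPM at E15 and 6.75 and 7.87 at P3 (log2 fold change 2.12, SE 0.61, adjusted p = 0.0272), and Fzd4 at 2.16 and 3.32 at E15 and 6.84 and 5.33 at P3 (log2 fold change 1.16, SE 0.30, adjusted p = 0.0194). Wnt10a had no count in either E15 library and 0.851 and 0.847 CPM at P3, which makes it at least 16.2-fold higher against a floor of 3 counts over the group. The summed progenitor and Müller glia markers were 2379 to 4515 CPM at E15 and 1308 to 1511 at P3, and those of microglia 778 to 1047 and 2295 to 2763, and their part was not tested.

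Loss of Brn3a at P3 called no member in edgeR or DESeq2, none reached an unadjusted p under 0.05, and 0.018% of all genes were called (0.012% higher and 0.006% lower). Sfrp2 was at 3.68 and 3.55 CPM in HET and 5.24 and 4.43 in KO, Fzd5 at 19.6 and 20.2 in HET and 23.6 and 32.3 in KO, and Wnt11 at 4.66 and 2.43 in HET and 5.12 and 2.69 in KO.

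Loss of Brn3b at P3 called 1 member, Fzd3, against 3.41% of all genes (0.264% higher and 3.15% lower). Fzd3 was at 39.9 and 43.4 CPM in HET and 63.6 and 67.3 in KO AP-positive cells (log2 fold change 0.66, SE 0.13, adjusted p = 0.0329), and the supernatant at the same age was at 62.2, 46.8, 47.7 and 54.1. The call was lost when any one of the 4 libraries was left out, which leaves 1 library in a group. It was also lost when only these 2 groups were fitted, where 0 of all genes were called against 569 in the main fit. At an unadjusted p under 0.05 there were 8 members, and DESeq2 called 4.

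The 7 others among these 8 were Wnt3, Fzd1, Fzd2, Fzd5, Sfrp1, Sfrp2 and Dkk3, and none of them passed. Wnt3 was at 4.61 and 6.42 CPM in HET and 2.49 and 1.13 in KO (log2 fold change -1.59, SE 0.42, adjusted p = 0.0738). Fzd2 was at 7.33 and 5.42 in HET and 11.4 and 12.2 in KO (log2 fold change 0.90, SE 0.30, adjusted p = 0.137), and Sfrp2 at 10.2 and 9.96 in HET and 14.01 and 38.1 in KO (log2 fold change 1.38, SE 0.49, adjusted p = 0.17). For each of these 3 the KO libraries stand nearer to the supernatant than the HET libraries do. In the same comparison 11 of 16 ganglion cell markers and 9 of 12 microglia markers were lower in KO. The ganglion cell sums were 4342 to 6175 CPM in HET and 1893 to 2176 in KO, the progenitor sums 1308 to 1511 and 1614 to 2738, the amacrine sums 436 to 472 and 769 to 958 with none of 6 called, and their part was not tested.

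Loss of Brn3b at E15 called no member in edgeR or DESeq2, against 1.85% of all genes (0.666% higher and 1.18% lower), and 4 had an unadjusted p under 0.05 (Wnt2b, Wnt4, Wnt10a and Wnt11). Wnt4, a ligand of several developing epithelia, was at 5.44 and 3.57 CPM in HET and 1.43 and 0.764 in KO (log2 fold change -2.04, SE 0.65, adjusted p = 0.201), and Wnt11 at 0.871 and 0.804 in HET and 0.254 and 0.0306 in KO (log2 fold change -2.54, SE 1.04, adjusted p = 0.361). In both genes the HET libraries are above the KO libraries. The test of a different Brn3b effect at the 2 ages called no member in either tool, with 4 at an unadjusted p under 0.05 (Wnt2b, Wnt3, Wnt10a and Fzd3), against 0.192% of all genes (0.006% higher and 0.186% lower).

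Between the 2 kinds of HET cells at P3, 1 member differed, Fzd2, which was higher in Brn3b HET, against 3.85% of all genes (2.03% higher and 1.82% lower). It was at 7.33 and 5.42 CPM in Brn3b HET and 2.10 and 1.87 in Brn3a HET (log2 fold change 1.68, SE 0.31, adjusted p = 0.0285). The call was lost without any one of the 4 libraries, which leaves 1 library in a group. DESeq2 called 5 members and a fit of these 2 groups alone 6. Of all genes they called 2981 and 3173, against 642 in the main fit. Sfrp2, at 10.2 and 9.96 against 3.68 and 3.55 (adjusted p = 0.106), Fzd10, at 6.75 and 7.87 against 1.28 and 1.54 (adjusted p = 0.0561), and Wnt11, at 0.988 and 0.696 against 4.66 and 2.43 (adjusted p = 0.168), did not overlap but did not pass. Amacrine markers ranged from 436 to 472 CPM in Brn3b HET and from 142 to 151 in Brn3a HET, photoreceptor markers from 3237 to 4670.3 and from 1209 to 1215, and their part was not tested.

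In the brain, the summed markers followed the dissections. Superior colliculus markers ranged in sum from 409.7 to 462 CPM in the colliculus and from 43.01 to 86.01 in the LGN. Thalamus markers ranged from 1289 to 1421 in the LGN and from 489 to 655 in the colliculus. Telencephalon markers ranged from 463 to 497 in the remaining brain, against at most 35.1 in both targets. Single genes did not all follow these sums. The colliculus markers En1 and En2 were lower in every colliculus library than in the remaining brain. Of the thalamus markers, Sox14 was higher in every colliculus library than in the LGN, and Prox1 overlapped between LGN and remaining brain. The telencephalon marker Emx2 was higher in every colliculus library than in the remaining brain. Tissues that lie on the dissected pieces also varied. Choroid plexus markers ranged from 17.03 to 5605 CPM over the LGN libraries, from 5.21 to 32.7 in the colliculus and from 222 to 546 in the remaining brain. Meninges markers ranged from 689 to 857 in the LGN, from 358 to 875 in the colliculus and from 80.6 to 234 in the remaining brain. Their part in the results on brain was not tested.

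The colliculus differed from the LGN in 7 of 32 tested members, against 10.2% of all genes called (4.41% higher and 5.78% lower). Higher in the colliculus were Wnt16, Fzd1, Fzd7 and Dkk3, and higher in the LGN were Wnt9a, Wnt9b and Fzd9. Of the 7, only the calls on Fzd7 and Wnt16 were lost in an alternative. With the number that the colliculus and LGN libraries share in their titles as a block, 9 members were called, all 7 and also Wnt7a and Dkk2, both higher in the colliculus. Dkk2 had a log2 fold change of 1.07 (adjusted p = 0.0475, against 0.0778 without the block).

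The LGN set is made of ligands and a receptor. Wnt9b was at 51.5, 56.4 and 58.1 CPM in the LGN, 20.5, 11.3 and 14.9 in the colliculus, 3.11 and 3.10 in the remaining brain and 4.90 in the pretectal area. The LGN libraries lie above all others and the colliculus libraries above the remaining brain (colliculus against LGN: log2 fold change -1.83, SE 0.20, adjusted p = 0.00049). Wnt9a was at 15.3, 12.97 and 10.3 in the LGN, 3.62, 3.18 and 1.65 in the colliculus, 5.60 and 4.39 in the remaining brain and 2.70 in the pretectal area (log2 fold change -2.19, SE 0.31, adjusted p = 0.00187). Fzd9 was at 27.4, 28.01 and 24.9 in the LGN, 13.5, 9.16 and 9.39 in the colliculus, 12.7 and 12.8 in the remaining brain and 14.6 in the pretectal area (log2 fold change -1.32, SE 0.18, adjusted p = 0.00142). In all 3 genes the 3 LGN libraries are higher than the other 6 brain libraries.

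The colliculus set is led by a receptor. Fzd1 was at 61.3, 56.5 and 62.9 CPM in the colliculus, 14.6, 16.9 and 11.9 in the LGN, 30.4 and 33.6 in the remaining brain and 41.9 in the pretectal area (log2 fold change 2.06, SE 0.14, adjusted p = 4.4e-05). The colliculus, the pretectal library, the remaining brain and the LGN follow in that order without overlap. Dkk3 was at 53.8, 68.01 and 82.00 in the colliculus and 34.7, 40.5 and 40.3 in the LGN (log2 fold change 0.82, SE 0.15, adjusted p = 0.00778), and Fzd7 at 12.8, 22.7 and 16.2 in the colliculus and 6.13, 7.15 and 9.94 in the LGN (log2 fold change 1.15, SE 0.31, adjusted p = 0.044). Wnt16 was low, at 1.46, 2.32 and 1.15 in the colliculus and 0.292, 0.147 and 0.0822 in the LGN (log2 fold change 3.20, SE 0.66, adjusted p = 0.0138).

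Both targets were then set against the remaining brain, a comparison in which they share the same 2 control libraries. In the colliculus 6 members were higher (Wnt2b, Wnt3, Wnt9b, Fzd1, Fzd10 and Dkk2) and Wnt7b lower, against 6.94% of all genes called (3.19% higher and 3.75% lower). In the LGN 7 were higher (Wnt2b, Wnt3, Wnt4, Wnt9a, Wnt9b, Fzd9 and Fzd10) and 5 lower (Wnt7b, Fzd1, Fzd2, Sfrp1 and Dkk3), against 10.9% (5.76% higher and 5.17% lower). Calls held under every alternative for 5 of 7 in the colliculus, not for Wnt2b and Dkk2, and for 8 of 12 in the LGN, not for Wnt9a, Fzd2, Fzd9 and Sfrp1.

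Wnt3 was at 26.02, 22.00 and 16.9 CPM in the colliculus and 22.9, 17.5 and 18.8 in the LGN against 8.26 and 4.91 in the remaining brain, with log2 fold changes of 1.71 (adjusted p = 0.00621) and 1.58 (adjusted p = 0.00625). For its neighbour Wnt9b they were 2.32 (adjusted p = 0.00103) and 4.15 (adjusted p = 3.1e-05). Both genes of the pair were thus higher in both targets than in the remaining brain, while between the targets Wnt9b differed and Wnt3 did not pass (adjusted p = 0.779). Fzd10 was at 43.7, 37.7 and 33.3 in the colliculus and 50.3, 51.1 and 36.2 in the LGN against 7.55 and 6.03 in the remaining brain, with log2 fold changes of 2.49 (adjusted p = 0.00025) and 2.75 (adjusted p = 8.9e-05).

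Wnt7b was the reverse, at 22.5, 24.2 and 23.5 CPM in the colliculus and 19.9, 20.9 and 20.2 in the LGN against 38.9 and 43.3 in the remaining brain, with log2 fold changes of -0.81 (adjusted p = 0.0051) and -1.01 (adjusted p = 0.00099). Fzd1 was called in opposite directions, at 0.91 in the colliculus (adjusted p = 0.00874) and -1.14 in the LGN (adjusted p = 0.00177), and the 2 targets differed from each other as given above. Wnt4 was at 30.8, 29.2 and 32.4 in the LGN and 18.03 and 11.1 in the remaining brain (log2 fold change 1.08, SE 0.20, adjusted p = 0.00884). Dkk3 was at 80.5 and 77.7 in the remaining brain, above each LGN library (log2 fold change -1.04, SE 0.16, adjusted p = 0.0039).

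Wnt2b was at 5.69, 5.02 and 4.53 CPM in the colliculus and 8.86, 5.90 and 5.997 in the LGN against 1.95 and 1.90 in the remaining brain, and the colliculus call (log2 fold change 1.39, SE 0.30, adjusted p = 0.0236) was lost in 4 of 11 alternatives. Sfrp1 was at 10.6, 8.77 and 29.8 in the LGN against 39.3 and 88.7 (log2 fold change -1.96, SE 0.51, adjusted p = 0.0364), a call lost without remaining brain replicate 2, without LGN replicate 1 or 2, and with only these groups fitted. Both its remaining-brain libraries and its LGN libraries differ widely among themselves. Sfrp5, an inhibitor, was at 0.389, 0.0737 and 1.81 in LGN replicates 1, 2 and 3, and the highest of these is replicate 3, where choroid plexus markers summed to 5605 CPM. Of the LGN libraries, replicate 3 also held the most Sfrp1. In the remaining brain Sfrp1 was higher in replicate 2, where those markers summed to 546 CPM, against 222 in replicate 1. Both of these libraries held more Sfrp1 than LGN replicate 3. The part of the choroid plexus was not tested. 

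Of the 34 members tested in at least 1 tissue, 9 were called in no comparison without a replicate block: Wnt7a, Fzd6, Sfrp4 and Dkk1, tested in both tissues, and Wnt2, Wnt6, Wnt10b, Sfrp5 and Dkk4, tested in brain only. Wnt7a, a canonical ligand of neurons and vessels, was at 19.04, 16.01 and 14.2 CPM in the colliculus, 12.5, 8.11 and 6.16 in the LGN and 17.9 and 11.1 in the remaining brain. All colliculus libraries are above all LGN libraries, and the remaining brain overlaps both. With the shared title number as a block it was one of the 2 members gained between colliculus and LGN (log2 fold change 0.93, adjusted p = 0.0118, against 0.0776 without the block). Wnt6 was at 1.21, 4.15 and 3.13 in the colliculus and 0.681, 1.55 and 0.246 in the LGN, with a wide spread within each. Fzd6, a receptor of planar cell polarity, was at 12.5, 16.9 and 16.6 in the colliculus, 14.9, 16.5 and 17.3 in the LGN and 13.9 and 8.27 in the remaining brain, and the targets overlap.

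**Figure D4:**
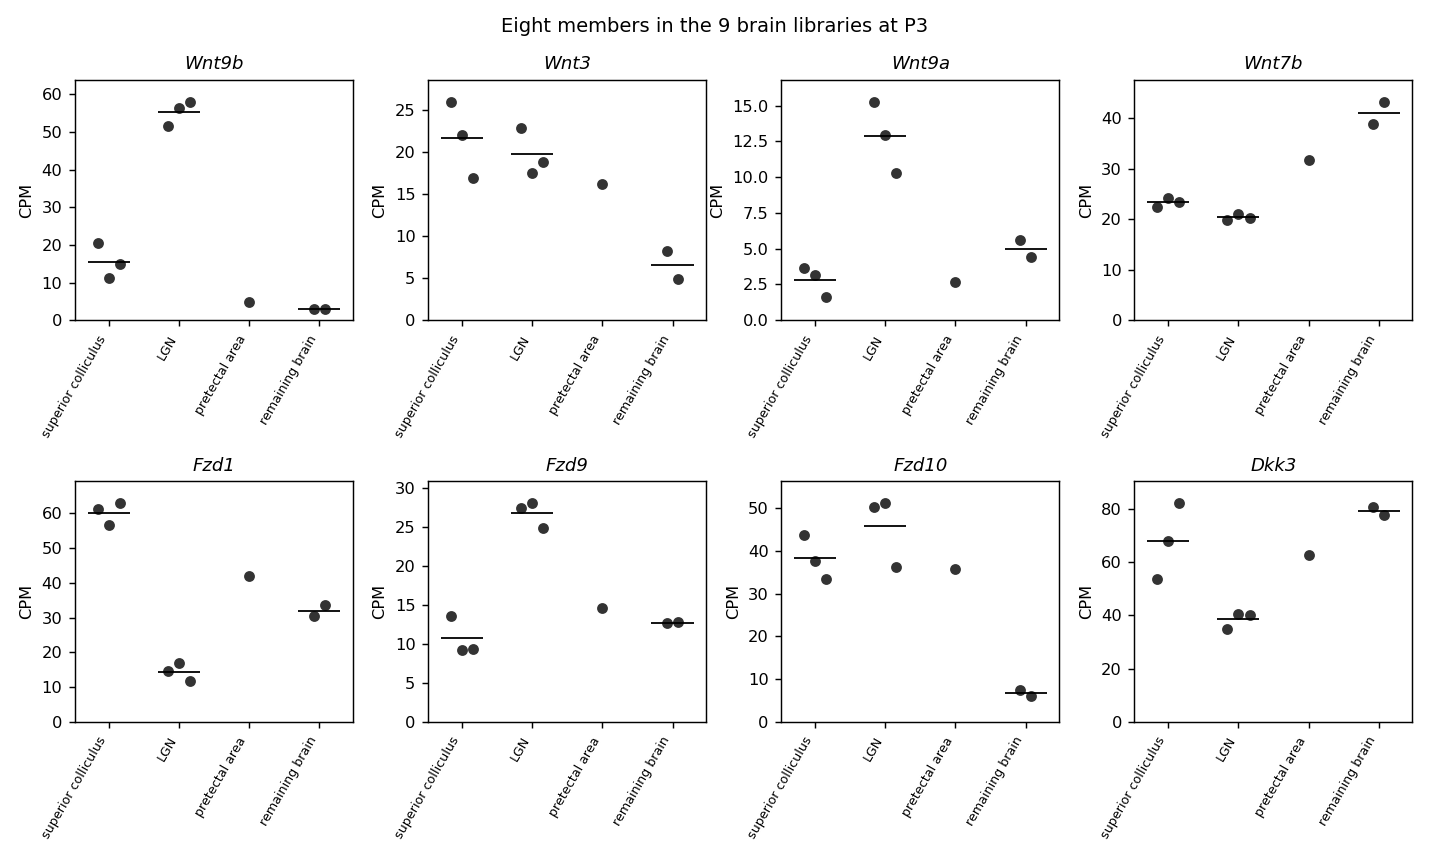
CPM of 8 members in the 9 brain libraries by region (points are libraries, bars are means where a region has more than 1 library, axes start at 0). Wnt9b, Wnt9a and Fzd9 are highest in the LGN, Fzd1 in the colliculus, Wnt7b in the remaining brain, and Wnt3 and Fzd10 are higher in all 3 visual targets than in the remaining brain.

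The other genes of the pathway were counted in lists by role, and some genes stand in more than 1 list. In AP-positive cells against supernatant at P3, where 55% of all genes were called, 1 of 8 coreceptors and atypical receptors was higher and 5 lower, among them Ror1 (log2 fold change -2.37, SE 0.27, adjusted p = 7e-06), a receptor for Wnt5a. Of 15 transducers 3 were higher and 10 lower, with 1 to 4 and 7 to 10 over the alternatives. Gsk3a and Gsk3b were lost in 13 and 14 of 19 alternatives, both of them without Brn3a HET replicate 1, where 1 transducer was higher. Of 10 tested feedback targets 1 was higher and 6 lower, the latter including Nkd1 (log2 fold change -1.05, SE 0.11, adjusted p = 2.6e-06), and 4 to 6 were lower over the alternatives, with Axin2 lost in 14 of 19. Of 7 tested R-spondins and their receptors 3 were higher and 2 lower, of 9 tested other inhibitors 2 and 4, and of 9 planar cell polarity genes 2 and 5, where the 5 ranged from 3 to 5 over the alternatives. Wls, which carries Wnt proteins to the cell surface, was higher, with a mean of 23.04 against 1.52 CPM (log2 fold change 3.85, SE 0.22, adjusted p = 1e-08). It was also higher at E15 (log2 fold change 2.92, SE 0.30, adjusted p = 1.8e-05), and both calls held under every alternative.

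With age in Brn3b HET cells, where 28.8% of all genes were called, 1 of 9 planar cell polarity genes was higher at P3 and 6 lower. Of the lower genes only Vangl2 (log2 fold change -1.47, SE 0.17, adjusted p = 0.0004) held in every alternative, and without P3 replicate 1 the count of lower genes was 2. Rspo2, a secreted enhancer of Wnt signalling, was higher at P3 both in these cells (log2 fold change 4.90, SE 0.55, adjusted p = 0.00037) and in the supernatant (log2 fold change 3.77, SE 0.42, adjusted p = 3.6e-05). Loss of Brn3b at E15, where 1.85% of all genes were called, called 1 gene of these lists, the feedback target Axin2. It was higher in KO with a mean of 17.4 against 7.54 CPM (log2 fold change 1.21, SE 0.24, adjusted p = 0.039), a call lost in 7 of 10 alternatives. 

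In the brain, 5 of 11 feedback targets were higher in the colliculus than in the remaining brain and none lower, against 6.94% of all genes called. Among them were Axin2 (log2 fold change 1.85, SE 0.21, adjusted p = 0.00097), Lef1 (log2 fold change 2.58, SE 0.30, adjusted p = 0.00113), Sp5 (log2 fold change 2.84, SE 0.37, adjusted p = 0.00198) and Nkd2. Against the LGN, Sp5 (log2 fold change 3.78, SE 0.33, adjusted p = 0.00014), Axin2 (log2 fold change 1.46, SE 0.18, adjusted p = 0.00084) and Nkd2 were also higher in the colliculus. In that comparison 10.2% of all genes were called (4.41% higher and 5.78% lower). In the LGN 1 of 11 feedback targets, Lef1, was higher than in the remaining brain (log2 fold change 2.44, SE 0.30, adjusted p = 0.00093). Of all genes 10.9% were called there (5.76% higher and 5.17% lower), and Lef1 is also one of the thalamus markers used above. Vangl1, a planar cell polarity gene, was higher in the LGN than in the colliculus, (colliculus against LGN: log2 fold change -2.33, SE 0.18, adjusted p = 8.7e-05). Wls was higher in the colliculus than in the LGN (log2 fold change 0.73, SE 0.12, adjusted p = 0.00534).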

How the data were processed

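The deposited table holds estimated counts per transcript for 27 libraries, with transcript length and percent GC given by the authors per the file header. Per the submitters' processing notes, Trimmomatic 0.32, Bowtie2 2.2.1 and eXpress 1.3.1 were used with the build GRCm38.p3. Per the labels' protocols, libraries were stranded (dUTP), single-end for retina and paired-end for brain. Here transcripts were summed per gene (88198 transcripts, 30735 genes) and rounded to whole numbers. The library size used for CPM is the summed counts of the genes kept by the low-count filter, multiplied by the library's TMM factor. Retina and brain were scaled separately. TPM were computed from the deposited lengths.

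Tests were edgeR 4.0.16 (R 4.3.3) quasi-likelihood tests on TMM-scaled libraries, after a filter on low counts (filterByExpr, minimum count 10), with Benjamini-Hochberg adjustment over all genes tested (16954 in retina, 16673 in AP-positive cells alone, 15288 in brain) with a threshold of 0.05. One fit held the 18 retinal libraries, one the 12 AP-positive libraries (genotype and age comparisons) and one the 9 brain libraries. Standard errors were derived from the log2 fold change and its F statistic. The scripts were tested on simulated data. Alternatives were DESeq2 1.42.0, other size factors, no filter, only the compared groups, protein-coding transcripts only, a replicate block, leaving out each library, and, chosen after seeing the data, the AP-positive HET groups only. Colliculus and LGN libraries with the same number in their titles deviated together (r = 0.288, 0.129 and 0.318). Differently numbered ones had r from -0.281 to -0.0122. Deviations within a group cancel out in sum, so these negative values follow in part from the positive ones and add no separate evidence. The numbers may pair the samples. The main tests leave such a pairing out, and only the replicate block uses it.

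The members follow a rule on symbols, and they, the pathway lists and the marker lists were chosen with earlier results of these data known. All members could be named, and of each other list up to 4 genes with the smallest adjusted p in a comparison. Marker genes that check a tissue label could be named too. Promoter windows are from RefSeq, and motifs were matched exactly. Intervals and floors cover counting error only. Reads of one member that also match another could be divided between them by eXpress. The pretectal library, alone in its group, entered no comparison.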

Additional observations from a re-analysis of the deposited data

Results flagged for a closer look

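Wnt10a in the P3 supernatant had 1 library far from the others. It was at 0.282 CPM in the Brn3a HET supernatant and between 0.528 and 0.552 CPM in the other 3, a gap of 0.914 of the range, above Dixon's critical value for 4 samples. These levels rest on few counts, 10 in that library and 19, 18 and 20 in the others. The same check was made for 28 members, and chance marks about 1 group in 20.

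The pretectal area is a single library that entered no comparison. Wnt5a, a ligand of the beta-catenin-independent branch, was at 31.6 CPM there against 19.5 to 31.4 in the other 8 brain libraries. Sfrp4 was at 2.198 CPM against 0.977 to 2.03. Dkk1, an inhibitor acting on the Lrp coreceptors, was at 3.50 CPM, from 35 counts, against 0 to 0.965. With 1 library these differences have no replicate check.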

How the results depend on the processing

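Of the 65 calls on members over all comparisons, 36 held in every alternative, 29 were lost in at least 1, and 0 reversed. At E15, AP-positive cells against supernatant gave 8 called members, 13 with DESeq2, 0 with only the compared groups and 2 with the AP-positive HET groups only. In that order 4467, 5615, 866 and 2236 of all genes were called. DESeq2 called 4 members for the difference between ages of Brn3b AP-positive cells against supernatant, against 0. It called 2347 of all genes there, against 1165. Brn3b KO against HET at P3 gave 1, with 4 by DESeq2, 2 with no filter and 0 with only the compared groups. All genes called were 569, 1545, 841 and 0. Brn3b HET against Brn3a HET gave 1, with 5 by DESeq2, 2 with no filter and 6 with only the compared groups. All genes called were 642, 2981, 1393 and 3173. Brn3b HET at P3 against E15 gave 10, and 5 with only the compared groups, with 4809 and 2949 of all genes. The cause of these shifts was not tested.

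Leaving out 1 library at a time gave 13 to 15 members for AP-positive cells against supernatant at P3, 0 to 11 at E15, 2 to 4 for the supernatant ages, 0 to 2 for the difference between ages and 5 to 10 for Brn3b HET at P3 against E15. It gave 0 throughout for Brn3a KO, for Brn3b KO at both ages and the difference between them, and for Brn3b HET against Brn3a HET. In brain it gave 5 to 8 for colliculus against LGN, 5 to 7 for colliculus and 8 to 13 for LGN against the remaining brain.

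With the replicate number as a block, the counts in the order P3, E15, supernatant ages and difference between ages were 14, 10, 3 and 0. For Brn3a KO, Brn3b KO at P3, Brn3b KO at E15 and their difference between ages they were 0, 1, 0 and 0. For Brn3b HET against Brn3a HET and for Brn3b HET at P3 against E15 they were 1 and 10, and for colliculus against LGN, colliculus and LGN against the remaining brain 9, 8 and 14. In retina, same-numbered AP-positive libraries of different groups had correlations of their deviations from -0.233 to 0.371. The remaining brain had 0.159 and -0.0452 with the colliculus and 0.225 and -0.00479 with the LGN. In a group of 2 libraries the deviations mirror each other, so these correlations cannot show whether same-numbered libraries are paired.

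Depth limits the members under 1 CPM: 9 members were not tested in retina and 5 in brain.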
